A study of Mus musculus with 5 samples.

Results

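The cells described here are the Klrg1-positive, non-cycling, Foxp3-positive cells of the tumor-draining lymph node in a mouse study of regulatory T cells (Tregs). The members were chosen by their own counts of Foxp3, Klrg1 and cell cycle genes, so these values describe the choice and support nothing. A cell was a member if it held at least 1 UMI (a counted transcript molecule) of Foxp3, at least 1 of Klrg1, and a UMI of at most 1 of 10 cell cycle genes. This gave 403 members among 6529 cells of 2 libraries and 20149 cells of the series, 166 of them in the library from mice given both treatments and 237 in the library from mice with Treg depletion alone. They were compared with the Foxp3-positive cells of the same libraries that met the same cycle rule and held no Klrg1 UMI, 426 with both treatments and 209 with depletion alone.

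All 5 libraries came from mice labelled C57BL/6 and were labelled as SMARTA cells, CD4 T cells with a transgenic receptor sorted as CD4+CD45.1+, with 1 library per group. Both libraries described here came from the inguinal lymph node on day 8 after tumor cells were placed in the mammary fat pad. The mice had received diphtheria toxin on days 0 and 2 to deplete Tregs, and those with both treatments had also received anti-CTLA4 antibody on days 0, 2 and 5. The other groups were anti-CTLA4 alone, no treatment, and naive SMARTA cells from spleen. The labels name the tumor as MC38 in one place and PyMG in another, they give no antibody control by library, and they do not say which host cells carry the toxin receptor or how many mice were pooled. Since each treatment has a single library, treatments could not be tested against each other. Every interval below is an exact 95% interval of counting error alone, and the 2 libraries, which differ in treatment, are not replicates of each other. Intervals of folds and levels treat each UMI as independent and leave out the spread between cells, so they are too narrow.

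Foxp3 is the transcription factor that sets the Treg program. Resting Tregs circulate through lymph nodes with the help of Ccr7 and carry the transcription factors Tcf7 and Lef1, whereas effector Tregs lose these and gain receptors for inflamed tissue and suppressive mediators. Klrg1, an inhibitory lectin-like receptor that binds cadherins, marks terminally differentiated effector Tregs, which are known for Itgae (the CD103 integrin chain), Il1rl1 (the interleukin 33 receptor ST2), Il10 (a suppressive cytokine) and Ccr2 (a chemokine receptor). Klrg1 is also carried by NK cells, effector CD8 T cells and type 2 innate lymphoid cells.

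The libraries held 16865422 UMIs with both treatments and 16151098 with depletion alone. The members had a median of 3146 UMIs with both treatments and 4497 with depletion alone, and the Klrg1-zero cells had 2540 and 3937. Because a deeper cell shows a rare transcript more readily, each cell was thinned at random to 1000 UMIs for all levels and folds below, unless stated. This kept 160 members and 401 Klrg1-zero cells with both treatments, and 236 members and 198 Klrg1-zero cells with depletion alone. Levels are UMIs summed over the cells of a class and scaled to 1000000 thinned UMIs (CPM). The 2 libraries shared 4 cell barcodes, 0 of them among the members.

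Klrg1 was found in 28.0% (24.5% to 31.8%) of the non-cycling Foxp3-positive cells with both treatments and in 53.1% (48.4% to 57.8%) with depletion alone. With Klrg1 scored after thinning, in cells still chosen on their unthinned Foxp3 and cycle counts, the shares were 18.2% (15.1% to 21.6%) and 28.6% (24.4% to 33.1%). These shares describe the genes of the rule and carry no test. Among non-cycling cells without a Foxp3 UMI the thinned share was 0.653% with both treatments and 1.72% with depletion alone. In cells without Foxp3 that held at least 2 markers of another cell type, Klrg1 was seen in 2 of 113 cells with both treatments (1.77%, 0.215% to 6.25%, median 3225 UMIs) and in 2 of 56 cells with depletion alone (3.57%, 0.435% to 12.3%, median 7594 UMIs). After thinning, the shares in these cells with other markers were 0.893% with both treatments and 3.57% with depletion alone. Klrg1 is a gene of the rule, so the shares in these backgrounds are a description as well. Cycling Foxp3-positive cells had thinned shares of 10.5% and 14.9%.

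Klrg1 was not seen in the other tumor libraries. Their few Foxp3-positive cells limit what this shows. It was at 0 in 29 non-cycling Foxp3-positive cells with anti-CTLA4 alone and in 14 such cells of the untreated library. A floor of 3 cells allows a share of cells with a Klrg1 UMI of up to 10.3% and 21.4%, and the exact upper limits are 11.9% and 23.2%. Neither library had a Klrg1 UMI in any of its 4566 or 1099 cells.

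Membership often rested on few Klrg1 transcripts. With both treatments 49 members held 1 Klrg1 UMI, 33 held 2, 27 held 3 and 57 held 4 or more, up to 14. With depletion alone 60 held 1, 38 held 2, 30 held 3 and 109 held 4 or more, up to 20. The rule also admitted cells with a cycle gene transcript. A UMI of 1 cycle gene was held by 92 members with both treatments and 121 with depletion alone, while 74 and 116 held none. Just outside the cycle rule, with 2 cycle genes, stood 57 cells with both treatments and 55 with depletion alone that were positive for Foxp3 and Klrg1.

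The members carried the Treg markers at levels close to those of the Klrg1-zero cells. All 6 Treg markers (Foxp3, Il2ra, Ikzf2, Ctla4, Lrrc32 and Tnfrsf18) were detected in both libraries. Foxp3, which the rule used, stood at 956 CPM in members and 1050 in Klrg1-zero cells with both treatments, and at 1030 and 1056 with depletion alone. Il2ra, the high-affinity interleukin 2 receptor chain, stood at 1162 CPM in members against 1127 in Klrg1-zero cells with both treatments, and at 1068 against 904 with depletion alone. Its folds were 1.03 (0.86 to 1.23) and 1.18 (0.97 to 1.44), and both intervals include 1. Ctla4, the target of the antibody and itself an inhibitory receptor, was slightly higher in members in both libraries, 1.13-fold (1.02 to 1.25) with both treatments and 1.21-fold (1.07 to 1.37) with depletion alone. Under other settings its fold with both treatments ran from 0.95 to 1.21 and kept its direction in 11 of 14. With depletion alone Ctla4 ran from 1.11 to 1.41. Icos, a costimulatory receptor of activated Tregs, had folds of 1.22 (1.07 to 1.38) and 1.18 (1.02 to 1.36). Ikzf2, the Helios factor, had folds of 1.27 (1.13 to 1.44) and 1.01 (0.87 to 1.17).

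Of the 4 further markers proposed for these cells, Il1rl1 and Ccr2 were higher in members in both libraries, while Itgae and Il10 did not separate the classes clearly. These markers were proposed with earlier results of these data known, so their values are a description. Il1rl1 had 106 CPM in members and 22.4 in Klrg1-zero cells with both treatments, and 114 and 45.5 with depletion alone. Its folds were 4.73 (2.00 to 12.05) and 2.52 (1.15 to 6.08), from 17 against 9 and 27 against 9 thinned UMIs. Among cells with no cycle gene UMI the fold with depletion alone was 1.3. The receptor was seen in 9.38% of members and 2.24% of Klrg1-zero cells with both treatments, and in 10.6% and 4.04% with depletion alone. Most members thus showed no Il1rl1 transcript at this depth.

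Ccr2, which directs cells towards CCL2 in inflamed tissue, had 488 CPM in members and 329 in Klrg1-zero cells with both treatments, and 831 and 455 with depletion alone. The folds were 1.48 (1.10 to 1.97) and 1.83 (1.42 to 2.37). Itgae had 662 CPM in members against 494 in Klrg1-zero cells with both treatments, a fold of 1.34 (1.05 to 1.71), and 636 against 601 with depletion alone, a fold of 1.06 (0.83 to 1.36). Il10 had 144 CPM against 122 with both treatments, a fold of 1.18 (0.68 to 1.97), and 59.3 against 55.6 with depletion alone, a fold of 1.07 (0.45 to 2.60). The intervals of Il10 are wide, and a difference in either direction was not detectable at this depth. At least 1 of these 4 markers was seen in 67.5% of members and 47.9% of Klrg1-zero cells with both treatments, and in 74.6% and 57.1% with depletion alone. All 4 together were seen in 0 of the 160 and 0 of the 236 thinned members.

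**Figure D1:**
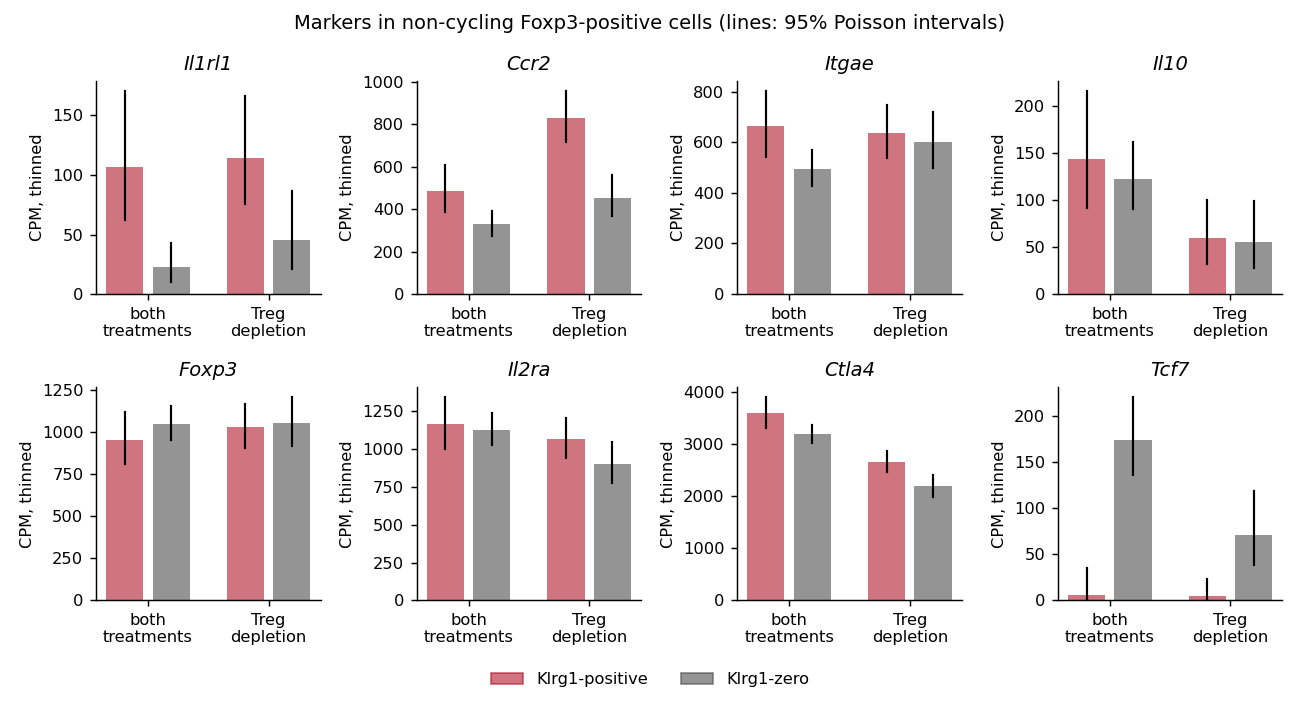
Levels of 8 genes in CPM of thinned UMIs (vertical axes, from 0) in Klrg1-positive (red) and Klrg1-zero (grey) non-cycling Foxp3-positive cells of the library with both treatments and the library with Treg depletion alone; lines are 95% Poisson intervals of counting error. Il1rl1 and Ccr2 stood higher in Klrg1-positive cells in both libraries, Foxp3 and Il2ra stood close together, and Tcf7 was at 6.25 and 4.24 CPM in Klrg1-positive cells.

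Across all genes, few differed between members and Klrg1-zero cells in both libraries. A gene was called when it was at least 1.5-fold higher, or lower, in both libraries, among the 3208 genes with at least 30 thinned UMIs over both classes in each library. This called 23 genes higher (0.717%) and 73 lower (2.28%), while in single libraries 177 (5.52%) were higher and 354 (11%) lower with both treatments, and 198 (6.17%) higher and 295 (9.2%) lower with depletion alone. In addition, 40 genes (1.25%) passed 1.5-fold in opposite directions in the 2 libraries. Most single calls depended on the random thinning. A second draw called 26 higher and 56 lower, and of the 23 and 73 genes 9 and 13 were among them. The mean over all possible thinnings of the same cells, an alternative chosen after seeing the data, called 14 higher and 20 lower, and of the 23 and 73 genes 8 and 10 were among these. The 8 were Gzmb, Gzma, Mt1, Cdkn2a, Cdkn1a, Ctla2a, Ifitm2 and Tent5a, and the 10 were Cd200, Ccr7, Foxp1, Emb, Rgs10, Map4k4, Zfp148, Irf2bp2, Safb2 and Nop10, and both groups were singled out after their values were seen. With edgeR's TMM factors the calls were 34 higher and 56 lower. The count of lower genes was 27 when the Klrg1-zero cells were drawn to match the members in depth. This left 100 Klrg1-zero cells with both treatments and 90 with depletion alone, so fewer genes could reach 30 UMIs. Of the 73 lower genes 8 were among the 27, and of the 23 higher genes 5 were among the 18 called there.

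**Figure D2:**
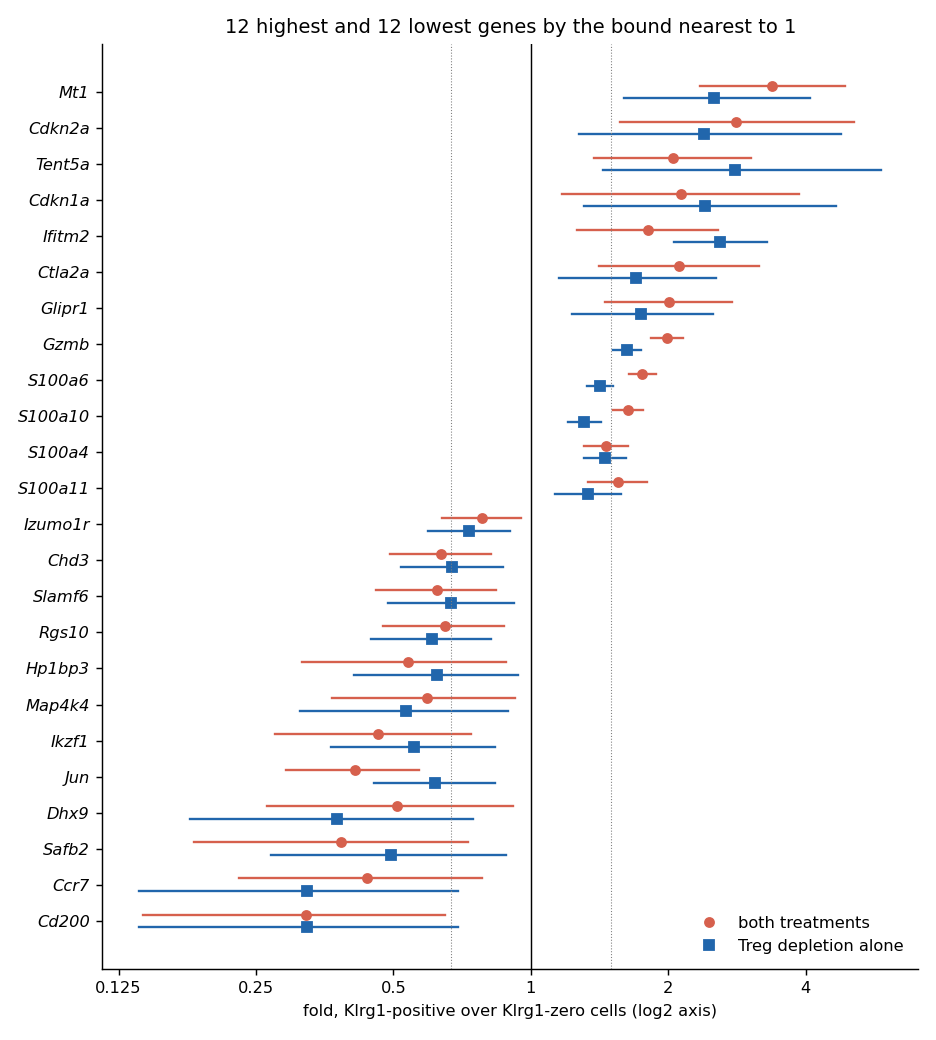
Folds of Klrg1-positive over Klrg1-zero cells (horizontal log2 axis) for the 12 highest and the 12 lowest genes, ranked on the end of the interval closest to 1, with circles for both treatments, squares for Treg depletion alone, lines for the 95% counting intervals and dotted lines at 1.5-fold. Of the genes shown, Mt1 had the highest fold with both treatments, 3.37, and Cd200 the lowest, 0.32.

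Granzyme B, the serine protease with which cytotoxic lymphocytes and effector Tregs kill target cells, differed with narrow intervals of counting error. Gzmb (GRCm38 chromosome 14, 56258838 to 56262260, minus strand) had 7131 CPM in members and 3589 in Klrg1-zero cells with both treatments, and 10157 and 6253 with depletion alone. The folds were 1.99 (1.84 to 2.15) and 1.62 (1.52 to 1.74). Per 1000-UMI cell the median was 5 Gzmb UMIs in members and 1 in Klrg1-zero cells with both treatments, and 8 and 3 with depletion alone. The classes overlapped widely, as the upper quartile of Klrg1-zero cells was 5 UMIs with both treatments and 10 with depletion alone. Cells without Gzmb made up 8.12% of members and 36.4% of Klrg1-zero cells with both treatments, and 5.08% and 20.2% with depletion alone. More of the Klrg1-zero cells thus showed none. Non-cycling cells with neither Foxp3 nor Klrg1 had 122 CPM with both treatments and 123 with depletion alone.

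**Figure D3:**
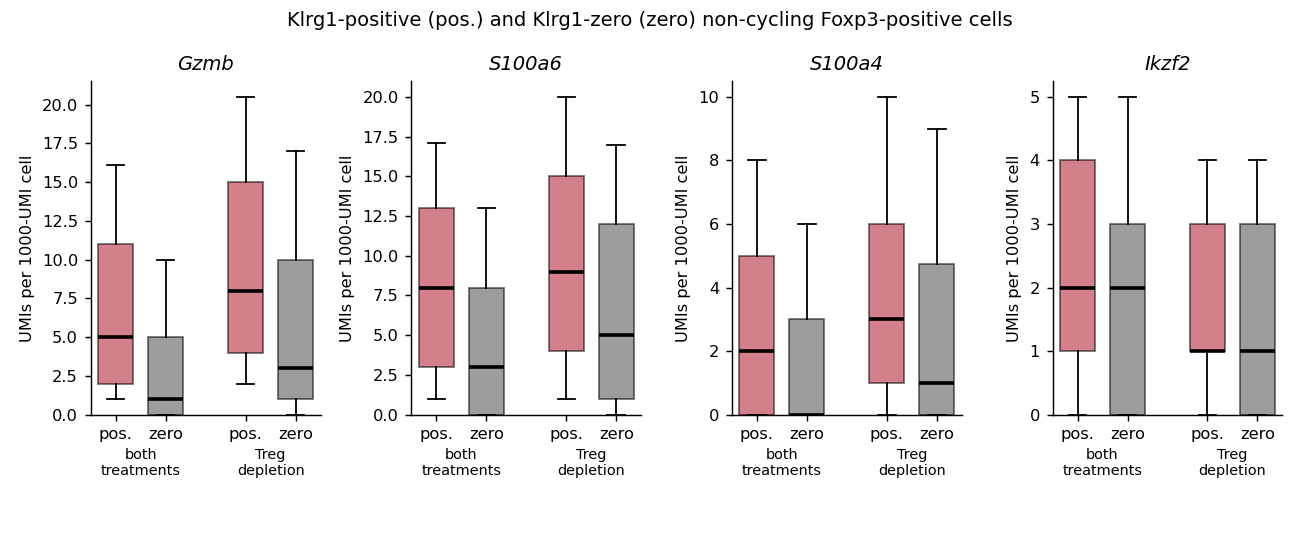
UMIs of Gzmb, S100a6, S100a4 and Ikzf2 per cell thinned to 1000 UMIs (vertical axes) in Klrg1-positive (red) and Klrg1-zero (grey) cells of each library; the thick line is the median, the box the interquartile range and the whiskers the 10th and 90th percentiles. The Gzmb medians were 5 against 1 with both treatments and 8 against 3 with Treg depletion alone, and the boxes of the classes overlapped.

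Of the other cytotoxic genes, Gzma was also called higher. Gzma, granzyme A, had 262 CPM in members and 157 in Klrg1-zero cells with both treatments, a fold of 1.67 (1.10 to 2.51), and 381 and 232 with depletion alone, a fold of 1.64 (1.14 to 2.40). It was seen in few cells, 6.88% of members and 6.48% of Klrg1-zero cells with both treatments and 13.1% and 10.1% with depletion alone. With both treatments the Gzma fold was 1.39 in the second draw and 1.21 without thinning, so the call was lost in each. Nkg7, a protein of cytotoxic granules, had folds of 1.35 (1.06 to 1.71) and 1.67 (1.28 to 2.19), and it was not called because the first stayed below 1.5. Prf1, perforin, had only 9 and 4 thinned UMIs in members, against 9 and 6 in Klrg1-zero cells, too few to compare. The list of type 1 and cytotoxic genes had 12 tested genes. Of these, 2 were higher (Gzma and Gzmb) and 0 lower, against 0.717% and 2.28% of all tested genes. The list's median log2 fold was 0.24, against -0.04 for all tested genes.

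Mt1, a metallothionein that binds zinc and copper, had the highest fold with both treatments of the 23 genes called higher. It stood at 462 CPM in members and 137 in Klrg1-zero cells with both treatments, and at 331 and 131 with depletion alone. The folds were 3.37 (2.35 to 4.87) and 2.52 (1.60 to 4.09), and 20.0% and 19.5% of members held a UMI, against 8.98% and 10.1% of Klrg1-zero cells. Unthinned, the folds were 1.97 and 2.61, and at 500 UMIs the fold with depletion alone was 1.28. Its neighbour and close relative Mt2 was rarer, at 8 and 9 thinned UMIs in members against 11 and 4 in Klrg1-zero cells.

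The promoters of Gzmb and Mt1, a gene with narrow intervals and one with high folds, and of Cd200, a gene with low folds, are given as RefSeq sequences of GRCm38.p6, from 250 bases before to 50 after the RefSeq start, 5′ to 3′ along the gene. For Gzmb this start lies 74 bases before the GENCODE start of the coordinates above, which the printed window does not reach. For Mt1 and Cd200 the 2 starts lie 7 and 0 bases apart. Capitals mark matches on either strand to the AP-1 motif TGANTCA, the Runx motif TGTGGT and the metal response element, searched as TGCACNC and TGCGCNC. Of 32851 RefSeq promoters of this length, 7.81% hold the first, 16.8% the second and 25.7% the third.
Gzmb, chr14:56262285-56262584, minus strand: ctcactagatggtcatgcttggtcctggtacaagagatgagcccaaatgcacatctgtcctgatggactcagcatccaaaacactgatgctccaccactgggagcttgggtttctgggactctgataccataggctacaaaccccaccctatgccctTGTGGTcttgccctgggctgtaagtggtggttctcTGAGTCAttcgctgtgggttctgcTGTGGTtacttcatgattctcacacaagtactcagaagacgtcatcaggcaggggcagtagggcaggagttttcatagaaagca
Mt1, chr8:94178839-94179138, plus strand: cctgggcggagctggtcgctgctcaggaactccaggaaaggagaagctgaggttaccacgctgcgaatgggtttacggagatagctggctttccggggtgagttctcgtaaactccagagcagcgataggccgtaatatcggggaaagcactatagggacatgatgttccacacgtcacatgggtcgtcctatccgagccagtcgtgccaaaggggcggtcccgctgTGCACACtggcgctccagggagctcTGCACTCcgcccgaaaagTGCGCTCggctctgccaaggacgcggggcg
Cd200, chr16:45409004-45409303, minus strand: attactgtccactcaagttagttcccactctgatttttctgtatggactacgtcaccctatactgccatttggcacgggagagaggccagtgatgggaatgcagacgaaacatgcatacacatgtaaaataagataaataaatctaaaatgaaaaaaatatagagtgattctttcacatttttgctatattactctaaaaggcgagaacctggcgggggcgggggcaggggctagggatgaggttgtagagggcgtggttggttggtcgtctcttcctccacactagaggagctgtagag
The Gzmb promoter holds 1 AP-1 and 2 Runx matches, the Mt1 promoter holds 3 metal response matches, and the Cd200 promoter holds 0 matches to the motifs searched. A match is a description of the letters and no measurement of binding.

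A pair of cell cycle inhibitors was higher in members. Cdkn2a, which encodes the p16 and p19 inhibitors, had 169 CPM in members and 59.9 in Klrg1-zero cells with both treatments, and 169 and 70.7 with depletion alone. Its folds were 2.82 (1.57 to 5.10) and 2.40 (1.28 to 4.77). With both treatments the fold was 1.10 when Klrg1 was scored after thinning and 1.53 against depth-matched cells. Cdkn1a, which encodes p21, had folds of 2.13 (1.17 to 3.87) and 2.41 (1.31 to 4.66), from 23 against 27 and 43 against 15 UMIs. These were the 2 of 9 tested cell cycle inhibitor genes called higher, and 0 were called lower. Of all tested genes, 0.717% were called higher and 2.28% lower. The rule chose cells by cycle genes in both classes alike, and with depletion alone Cdkn1a stood at 0.72-fold when Klrg1 was scored after thinning.

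S100 proteins, small calcium-binding proteins of migrating and activated cells, were higher in members with narrow counting intervals but mostly below 1.5-fold. S100a6 had 8806 CPM in members and 5020 in Klrg1-zero cells with both treatments, and 10521 and 7429 with depletion alone, with folds of 1.75 (1.64 to 1.88) and 1.42 (1.33 to 1.51). S100a10 had folds of 1.63 (1.51 to 1.76) and 1.31 (1.2 to 1.42), S100a11 had 1.55 (1.33 to 1.80) and 1.33 (1.13 to 1.57), and S100a4 had 1.46 (1.31 to 1.63) and 1.45 (1.31 to 1.61). All 4 were higher in both libraries with intervals above 1. Lgals1, the galectin-1 gene, had folds of 1.54 (1.42 to 1.67) and 1.17 (1.08 to 1.27). Of the 19 tested S100, annexin and galectin genes only Lgals8, galectin-8, was called higher (not so by the mean over all thinnings) and 0 lower. Of all tested genes 0.717% were called higher. The median log2 fold of these 19 genes was 0.31.

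Other receptors and factors of effector Tregs differed little or were too rare to compare. Cxcr3, a chemokine receptor of type 1 responses, had folds of 1.22 (0.93 to 1.6) and 1.18 (0.92 to 1.52), Batf, an AP-1 family factor of effector Tregs, had 1.22 (0.96 to 1.55) and 1.15 (0.89 to 1.49), and Gata3, a factor that Tregs of barrier tissue carry, had 1.07 (0.72 to 1.58) and 1.2 (0.81 to 1.79). All 6 intervals include 1. Ccr4, a chemokine receptor for skin homing, was called lower, at 0.52 (0.18 to 1.27) and 0.47 (0.23 to 0.94), from 6 and 14 UMIs in members. With both treatments its fold was 0.97 in the second draw and 0.69 by the mean over all thinnings, so the call was lost in each. With Ccr7 it was 1 of 2 lower genes among 9 tested chemokine receptors, against 2.28% of all tested genes called lower. Tigit, Tbx21, Areg, Irf4 and Bach2 had at most 8 UMIs in the members of either library.

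The other genes among the 12 highest have less related functions. Ifitm2, a membrane protein that blocks virus entry, had folds of 1.81 (1.26 to 2.57) with both treatments and 2.59 (2.06 to 3.30) with depletion alone. Ctla2a, a cathepsin inhibitor, had folds of 2.11 (1.41 to 3.15) and 1.70 (1.15 to 2.55). Tent5a, a poly(A) polymerase, had folds of 2.05 (1.37 to 3.04) and 2.80 (1.44 to 5.86), and Glipr1 had 2.00 (1.45 to 2.76) and 1.75 (1.23 to 2.51). Glipr1 fell below 1.5-fold with depletion alone in the mean over all thinnings, at 1.43.

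Tcf7 and Ccr7, genes of resting Tregs, were lower in members, while most tested genes of the resting Treg list were not called. Tcf7, the TCF-1 factor of resting T cells, was nearly absent from them, with 1 UMI in members against 70 in Klrg1-zero cells with both treatments, and 1 against 14 with depletion alone. The ratios were 0.04 (0.00 to 0.21) and 0.06 (0.00 to 0.39), and Tcf7 had too few UMIs with depletion alone to enter the genome-wide count. Ccr7, the lymph node homing receptor, had 87.5 CPM in members and 200 in Klrg1-zero cells with both treatments, and 42.4 and 131 with depletion alone, with folds of 0.44 (0.23 to 0.78) and 0.32 (0.14 to 0.69). Foxp1, a factor that maintains resting T cells, had folds of 0.51 (0.30 to 0.81) and 0.62 (0.35 to 1.10).

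Lef1, a partner of TCF-1, had folds of 0.69 (0.42 to 1.08) and 0.69 (0.42 to 1.13), with intervals that include 1. By the mean over all thinnings Lef1 had 0.60 with both treatments and 0.63 with depletion alone, and it was called lower there. Klf2, a factor that keeps T cells circulating, had 0.60 (0.45 to 0.80) with both treatments and 0.93 (0.72 to 1.19) with depletion alone, and whether these differ was not tested. S1pr1, the receptor with which T cells leave lymph nodes, had 0.44 (0.23 to 0.79) with both treatments and 1.26 (0.73 to 2.21) with depletion alone. Among all tested genes 2.28% were called lower and 0.717% higher, and the median log2 fold was -0.04. Of the 12 tested genes in the resting Treg list, 2 were lower (Ccr7 and Foxp1) and 0 higher, with a median log2 fold of -0.42. Of the 22 tested genes in the effector Treg list, 2 were higher (Gzmb and Prdm1) and 0 lower, with a median log2 fold of 0.26. Prdm1, which encodes Blimp-1, passed 1.5-fold in both libraries in this draw, with folds of 1.55 (0.96 to 2.48) and 1.94 (0.98 to 4.04). With depletion alone its fold was 0.49 in the second draw and 0.88 in the mean over all thinnings. Of the 19 tested Treg identity genes 0 were called either way, with a median log2 fold of 0.03.

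Cd200, a surface ligand that dampens myeloid cells, was lower in members. It stood at 56.2 CPM in members and 175 in Klrg1-zero cells with both treatments, and at 42.4 and 131 with depletion alone, and both folds were 0.32 (0.14 to 0.65 and 0.14 to 0.69). Cells with Cd200 made up 5.00% of members and 14.5% of Klrg1-zero cells with both treatments, and 4.24% and 10.1% with depletion alone. Slamf6, a receptor of less differentiated T cells, had folds of 0.62 (0.46 to 0.84) and 0.67 (0.49 to 0.92). Izumo1r, the folate receptor 4 gene of Tregs, had folds of 0.78 (0.64 to 0.95) and 0.73 (0.60 to 0.90), and it was not called.

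Jun, a subunit of the AP-1 factor, had folds of 0.41 (0.29 to 0.57) and 0.62 (0.45 to 0.83), and Ikzf1, the Ikaros factor, had 0.46 (0.28 to 0.74) and 0.55 (0.36 to 0.84). In the mean over all thinnings Ikzf1 stood at 0.58 and 0.72, so it no longer passed with depletion alone, and Jun stood at 0.52 and 0.71 there and did not pass either. Rgs10, a regulator of G protein signals, had folds of 0.65 (0.47 to 0.87) and 0.61 (0.45 to 0.82). The inhibitory receptor gene Lag3 had folds of 0.66 (0.44 to 0.97) and 0.45 (0.23 to 0.83), with 0.72 and 0.55 by the mean over all thinnings, whereas Havcr2, which encodes Tim-3, had 1.90 (1.04 to 3.43) and 1.45 (0.74 to 2.95). By that mean Havcr2 had 1.82 and 1.65, and it was called higher there. The 5 further genes among the 12 lowest were Chd3, Dhx9, Hp1bp3, Map4k4 and Safb2, with folds from 0.38 (Safb2) to 0.64 (Chd3) with both treatments and from 0.38 (Dhx9) to 0.67 (Chd3) with depletion alone. Of 19 tested receptor response genes 2 were lower, against 2.28% of all tested genes. These were Rel, an NF-κB subunit, and Tnfaip3, a brake on NF-κB. Neither was called in the second draw or by the mean over all thinnings, where Rel had 0.66 with both treatments and 0.84 with depletion alone, and Tnfaip3 0.74 and 0.64. Of 38 tested respiration genes 0 were called either way. The members thus did not carry all inhibitory receptors at a higher or at a lower level.

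The levels were also set against the amount of Klrg1. Members were split into those with 0, 1 and 2 or more Klrg1 UMIs left after thinning. Gzmb was at 3589 CPM in Klrg1-zero cells with both treatments, then at 6741, 6767 and 8190 CPM, and at 6253 with depletion alone, then at 9732, 10083 and 11173 CPM. Even the members with no Klrg1 UMI left thus stood above the Klrg1-zero cells. Ccr2 was at 329, 431, 517 and 524 CPM with both treatments in the same order of Klrg1, and at 455, 634, 1000 and 1019 with depletion alone. Not all genes rose along this order. Mt1 was at 137, 362, 650 and 333 CPM with both treatments, and at 131, 312.5, 375 and 308 with depletion alone. Itgae was at 601, 598, 708 and 615 CPM with depletion alone. Tcf7 was at 0 in members with no Klrg1 UMI left in both libraries. The split compares cells of 1 library each and carries no test.

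**Figure D4:**
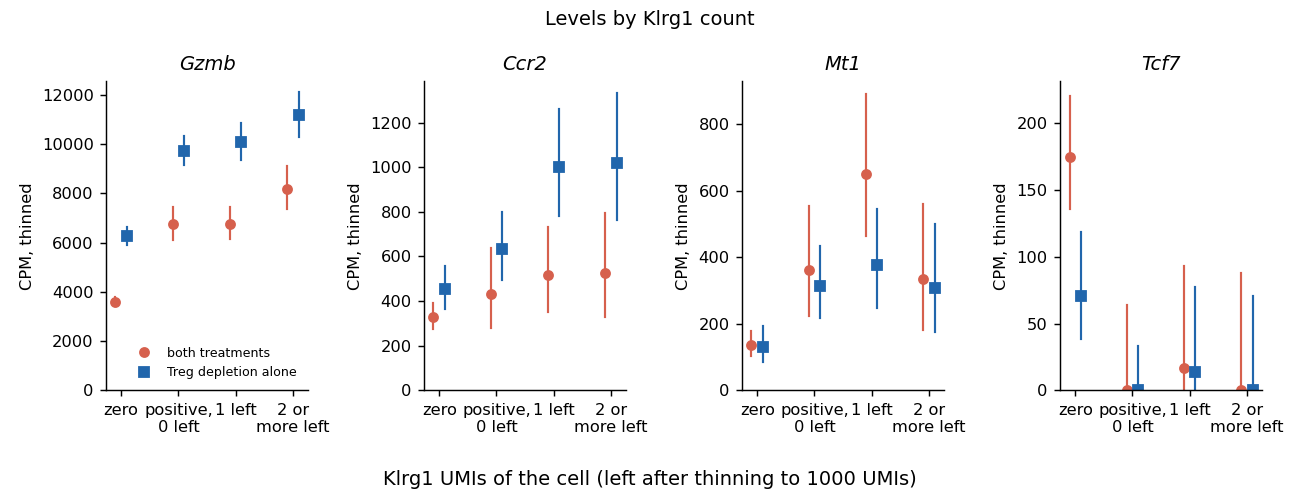
Levels of Gzmb, Ccr2, Mt1 and Tcf7 (CPM of thinned UMIs) in Klrg1-zero cells and in Klrg1-positive cells with 0, 1 and 2 or more Klrg1 UMIs left after thinning, with circles for both treatments, squares for Treg depletion alone and lines for 95% Poisson intervals. The lowest Gzmb level of a Klrg1-positive bin was 6741 CPM with both treatments and 9732 with Treg depletion alone, against 3589 and 6253 CPM in Klrg1-zero cells.

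Cycling Foxp3-positive cells, which the rule left out, gave a second look in the same libraries, with 317 Klrg1-positive and 727 Klrg1-zero thinned cells with both treatments and 358 and 480 with depletion alone. Of the 3179 genes tested in both settings, 17 (0.535%) were at least 1.5-fold higher in Klrg1-positive cycling cells in both libraries and 6 (0.189%) lower. Of the 23 genes called higher in the non-cycling cells 22 were tested here, and 3 of them (Gzmb, Gzma and Cdkn2a) passed again. Of the 68 tested among the 73 lower genes, 0 passed again. Cd200 had too few UMIs with depletion alone to be tested here. Its folds were 0.27 (0.08 to 0.69) with both treatments and 0.50 (0.16 to 1.35) with depletion alone, from 5 and 6 UMIs in Klrg1-positive cells. Ccr7 had 0.51 (0.31 to 0.80) and 0.76 (0.49 to 1.16). Gzmb had folds of 1.85 (1.70 to 2.02) with both treatments and 2.11 (1.94 to 2.28) with depletion alone. Ccr2 had 1.80 (1.33 to 2.43) and 1.96 (1.5 to 2.56), and S100a6 had 1.3 (1.22 to 1.38) and 1.60 (1.51 to 1.70). Jun, at 1.10 (0.84 to 1.42) and 0.99 (0.68 to 1.43), was not lower in cycling cells.

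Markers of other cell types were looked for in the members. Cd8a was at 0 thinned UMIs in members of both libraries, as were the NK cell genes Ncr1, Klrb1c and Eomes, the B cell genes Ebf1 and Pax5, and the type 2 innate lymphoid cell genes Il17rb and Arg1. A count of 0 allows up to 18.8 CPM with both treatments and 12.7 with depletion alone. Thinning hid some markers. Before it, members of each library held 3 of the 5 NK cell markers. Of the 8 myeloid markers they held 5 with both treatments and 3 with depletion alone. Of the 6 listed markers of type 2 innate lymphoid cells they held 3 and 6. In Klrg1-zero cells these were 3 and 4 NK, 4 and 6 myeloid and 3 and 4 innate lymphoid markers. The summed level of the 8 myeloid markers was 0 in members and 20.0 CPM in Klrg1-zero cells with both treatments, and 12.7 and 45.5 CPM with depletion alone. The summed level of 5 B cell markers was 81.2 CPM in members and 32.4 in Klrg1-zero cells with both treatments, where Cd79b, a chain of the B cell receptor complex, gave 12 and 9 UMIs of the 13 in each class. With depletion alone it was 72.0 CPM in members and 80.8 in Klrg1-zero cells. The summed level of the 5 NK cell markers, mostly Gzma, was 319 CPM in members and 214 in Klrg1-zero cells with both treatments, and 398 and 278 with depletion alone. The 6 listed markers of type 2 innate lymphoid cells, of which Gata3, Rora and Il1rl1 are also Treg genes, summed to 506 CPM in members and 332 in Klrg1-zero cells with both treatments and to 530 and 379 with depletion alone. Cd8b1 gave the CD8 markers 25 CPM in members and 44.9 in Klrg1-zero cells with both treatments and 29.7 and 60.6 with depletion alone. The gamma delta T cell markers, mostly Trdc, summed to 56.2 CPM in members and 74.8 in Klrg1-zero cells with both treatments, and to 4.24 and 25.3 with depletion alone. The plasma cell markers summed to 6.25 CPM in members and 2.49 in Klrg1-zero cells with both treatments, and to 0 and 20.2 with depletion alone, and Cpa3 of mast cells was at 0 in both classes. Igkc, an immunoglobulin light chain, had folds of 1.2 (0.90 to 1.60) and 1.95 (1.51 to 2.54). By the mean over all thinnings Igkc had 1.75 with both treatments and 1.85 with depletion alone, and it was called higher there. At least 2 markers of another cell type were held by 13 of 166 members and 16 of 426 Klrg1-zero cells with both treatments. With depletion alone they were held by 23 of 237 members and 22 of 209 Klrg1-zero cells. The part of other cells or of their free RNA in these results was not tested beyond leaving such cells out. This called 29 genes higher and 68 lower.

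The sort was for SMARTA cells, so the SMARTA receptor genes Trbv13-1 and Trav14d-3-dv8 were looked up. Foxp3-positive cells, cycling or not, were 1649 of 4343 with both treatments, 1284 of 2186 with depletion alone and 16 of 1099 in the untreated library. After thinning, 2.50% (0.685% to 6.28%) of members and 10.2% (7.44% to 13.6%) of Klrg1-zero cells with both treatments held a UMI of either. With depletion alone it was 5.51% (2.97% to 9.24%) and 9.60% (5.88% to 14.6%). Among non-cycling cells with neither Foxp3 nor Klrg1 it was 32.6% (30.5% to 34.7%) with both treatments and 23.3% (19.9% to 27.0%) with depletion alone. The intervals of members lie below those of the cells with neither gene in both libraries. Before thinning the shares were 6.02% of members and 20.0% of Klrg1-zero cells with both treatments, and 19.4% and 19.6% with depletion alone. Absence of such a UMI does not show that a cell lacks the receptor. Among the 33 listed Trav genes, Trav14d-3-dv8 gave 9.09% of 33 UMIs in members with both treatments and 33.8% of 65 with depletion alone. In Klrg1-zero cells it gave 29.5% of 95 and 37.0% of 46, and in cells with neither gene 54.1% of 717 and 46.6% of 262. Among 4 listed Trbv genes, Trbv13-1 gave 93.3% of 15 and 93.2% of 74 UMIs in members. In cells with neither gene it gave 99.3% and 99.5%. The share of members with another receptor was not tested.

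Adding anti-CTLA4 to depletion was compared within the members, as a difference between 1 library each that no replicate backs. Of 3050 genes with at least 30 thinned UMIs, 284 (9.31%) were at least 1.5-fold higher with both treatments and 262 (8.59%) lower. Of these, 54 of the 284 (19.0%) and 37 of the 262 (14.1%) passed 1.5-fold the same way in Klrg1-zero cells. Of all 3050 genes, 253 (8.30%) were at least 1.5-fold higher and 163 (5.34%) lower in Klrg1-zero cells. By the mean over all thinnings the counts were 96 and 94, and 64 and 62 of these were among the 284 and 262. A second draw called 257 higher and 260 lower, and 76 and 83 of these were among the 284 and 262. Most single calls between treatments thus depended on the random thinning too.

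Among immune genes Il10 and Lag3 were higher with both treatments. Il10 had 144 CPM with both treatments and 59.3 with depletion alone in members, a fold of 2.42 (1.2 to 5.09), and its fold in Klrg1-zero cells was 2.2 (1.13 to 4.69). Lag3, an inhibitory receptor that binds MHC class II, had 219 and 72.0 CPM, a fold of 3.04 (1.66 to 5.78), and 2.04 (1.38 to 3.10) in Klrg1-zero cells. Ctla4 had 3588 CPM with both treatments and 2657 with depletion alone, a fold of 1.35 (1.2 to 1.51), and 1.45 (1.3 to 1.62) in Klrg1-zero cells. All 3 genes thus had folds above 1 in both classes, and Ctla4 stayed below 1.5.

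The other genes among the 6 highest were Ttn (5.53-fold, 2.48 to 14.0), Wdr89 (4.18-fold, 2.11 to 8.86), St8sia4 (4.1-fold, 1.85 to 9.98), Morf4l2 (3.54-fold, 1.63 to 8.29) and Dusp1 (2.49-fold, 1.58 to 3.98). Ttn encodes the muscle protein titin and Dusp1 a phosphatase of MAP kinases. By the mean over all thinnings Morf4l2 had 1.63-fold and Dusp1 1.55-fold, Ttn had 4.78-fold, and St8sia4 was not among the genes called.

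The 6 lowest genes were Ifitm1, Eno1, Ifitm2, H2-Q6, Prkcq and Ifitm3. Ifitm3, an antiviral membrane protein like Ifitm1 and Ifitm2, had 531 CPM with both treatments and 1466 with depletion alone, a fold of 0.36 (0.28 to 0.46), and 0.31 (0.25 to 0.38) in Klrg1-zero cells. Ifitm2 had a fold of 0.28 (0.21 to 0.37), and 0.40 (0.29 to 0.55) in Klrg1-zero cells. Ifitm1 had 2 UMIs with both treatments and 49 with depletion alone, a fold of 0.06 (0.01 to 0.23), and those 49 came from 4.66% of the members. Eno1, the glycolytic enolase, had a fold of 0.22 (0.12 to 0.36), and 0.17 (0.11 to 0.25) in Klrg1-zero cells. With Hk1, Pfkl and Aldoc it was 1 of 4 lower genes among 14 tested glycolysis genes, against 8.59% of all tested genes. Prkcq, a kinase of receptor signalling, had 0.32 (0.16 to 0.59) in members and 0.98 (0.69 to 1.40) in Klrg1-zero cells. By the mean over all thinnings Prkcq had 0.51, H2-Q6 0.48 and Ifitm1 0.03 in members.

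Gzmb had 7131 CPM with both treatments and 10157 with depletion alone in members, a fold of 0.70 (0.65 to 0.75), and 0.57 (0.53 to 0.62) in Klrg1-zero cells. Ccr2 had 488 and 831 CPM, a fold of 0.59 (0.45 to 0.77), and 0.72 (0.55 to 0.96) in Klrg1-zero cells. Il1rl1 and Itgae had folds of 0.93 (0.47 to 1.77) and 1.04 (0.81 to 1.35) in members, and a difference was not detectable. Penk, which encodes the opioid precursor proenkephalin and is known from Tregs of injured tissue, had 206 CPM with both treatments and 462 with depletion alone in members, a fold of 0.45 (0.29 to 0.66). In Klrg1-zero cells Penk had 304 and 121 CPM, a fold of 2.51 (1.61 to 4.07). It was seen in 6.88% and 9.32% of members, so that its level rested on few cells.

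**Figure D5:**
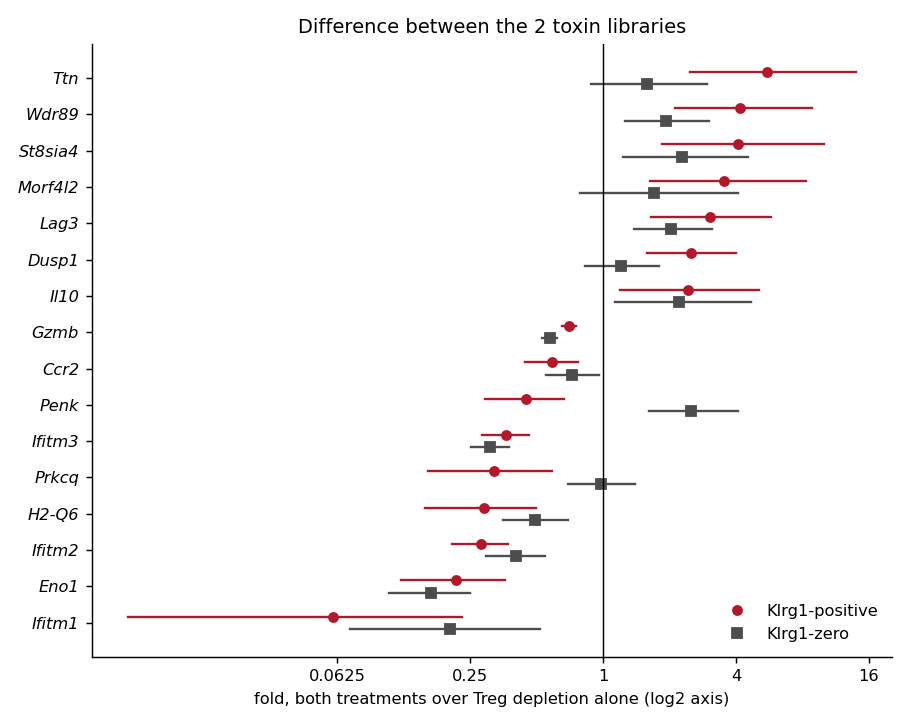
Folds of both treatments over Treg depletion alone (horizontal log2 axis) in Klrg1-positive cells (red circles) and Klrg1-zero cells (grey squares), with 95% counting intervals, for the 6 highest and 6 lowest genes and for Il10, Gzmb, Ccr2 and Penk. Ifitm2, Ifitm3 and Eno1 were lower and Il10 and Lag3 higher in both classes, while Penk had folds of 0.45 and 2.51.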

How the data were processed

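UMI counts per gene and cell were measured by a droplet 3′ method in 5 libraries. The tools named per the submitters' processing notes are Seurat 4.0.4, R 4.1.1, bcl2fastq 2.20 and Cell Ranger 6.0.0, and the build is mm10. The deposited tables hold unnormalised counts of 11924 genes. Some genes of the lists are not reported here. CD3 and receptor constant genes (0 of 6 listed) were not used here.

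Cells were thinned to 1000 UMIs without replacement (seed 1), shallower cells left out, and UMIs summed per class and library. Folds carry exact conditional binomial, levels exact Poisson and shares exact binomial (Clopper-Pearson) 95% intervals, which cover counting error only. UMIs of 1 cell are not independent, so the fold and level intervals are too narrow. This holds for genes seen in few cells and for abundant genes that vary between cells. In thinned Klrg1-zero cells with depletion alone, Gzmb ran from 0 UMIs at the 10th percentile to 17 at the 90th. A class at 0 was set to 3 UMIs. Called genes needed 30 UMIs and 1.5-fold. With 1 library per treatment no p-value was computed. No doublet caller was run. Named genes are the 12 highest and 12 lowest by the interval bound nearest to 1 in the weaker library (6 and 6 between treatments), 2 to 4 genes of each list, and a set of Treg genes; Nkg7, Prf1, Mt2, Lgals1, Ifitm1 and Igkc in the text serve as neighbours or markers, and the genes named by the mean over all thinnings were chosen after their values were seen. The members and gene lists were chosen with earlier results of these data known. Scripts were tested on simulated data. Coordinates are from GENCODE M21 (GRCm38) and promoters from RefSeq (GRCm38.p6), where 3 genes were looked up. Tools were Python 3.11.15, numpy 2.4.6, scipy 1.17.1, matplotlib 3.10.9, R 4.3.3 and edgeR 4.0.16.

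The 16 other settings tried were no thinning, 500 UMIs, a second seed, at least 2 Klrg1 or Foxp3 UMIs, no cycle gene, leaving out cells with markers of other types, the 5% of cells with most UMIs, cells under 500 genes or over 5% mitochondrial UMIs, or cells with SMARTA receptor genes, Klrg1 scored after thinning, depth-matched Klrg1-zero cells, minimums of 10 and 60 UMIs, TMM factors and a 2-fold limit. The mean over all thinnings was added after seeing the data.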

Additional observations from a re-analysis of the deposited data

Results flagged for a closer look

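Cd74, the invariant chain of MHC class II, differed in direction between the libraries, with folds of Klrg1-positive over Klrg1-zero cells of 1.68 (1.28 to 2.2) with both treatments and 0.66 (0.51 to 0.86) with Treg depletion alone. The difference was not tested. In cycling Foxp3-positive cells its folds were 0.89 (0.65 to 1.2) and 1.56 (1.18 to 2.06).

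The naive spleen library, which enters no comparison above, held 13 Klrg1-positive cells among its 70 non-cycling Foxp3-positive cells, a share of 18.6% (10.3% to 29.7%). Thinned, Ikzf2, the Helios factor, stood at 4615 CPM in those 13 cells, all of which held it, and at 1035 CPM in the 57 Klrg1-zero cells, of which 21 held it. Tcf7 was at 0 UMIs in the 13 cells and at 45 in the 57 others, and Ccr7 at 0 and 49. Gzmb had 4 UMIs, in 1 of the 13 cells, and 6 UMIs in 4 of the 57.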

How the results depend on the processing

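No paired analysis was possible because each treatment has 1 library. Against 23 genes higher and 73 lower, the counts were 53 and 141 without thinning, 135 and 321 with a minimum of 10 UMIs, 8 and 12 with 60 UMIs, 4 and 4 at 2-fold, and 14 and 20 by the mean over all thinnings. Lower genes alone moved to 36 with 500 UMIs, 47 with at least 2 Foxp3 UMIs, 25 with no cycle gene, 37 without cells with SMARTA receptor genes and 27 with depth-matched cells. Of the 73 lower genes, 9 were among the 25 and 8 among the 27. With both treatments, 284 genes were higher and 262 lower; these were 525 and 439 without thinning, 113 and 173 with no cycle gene, and 96 and 94 by the mean over all thinnings, and 159 were higher with 500 UMIs. The share of Klrg1-positive cells was 19.8% with both treatments and 39.7% with depletion alone from 2 Klrg1 UMIs, and 18.2% and 28.6% after thinning. Of called genes, directions turned with depletion alone: Prdm1 to 0.89 without thinning, 0.49 with the second seed and 0.88 by the mean over all thinnings, and Cdkn1a to 0.72 with Klrg1 scored after thinning. The cause was not tested. Gzmb kept its direction in both libraries under all 14 alternatives that gave its fold, from 1.69 to 2.38 with both treatments and from 1.40 to 1.70 with depletion alone. Mt1, Il1rl1, Ccr2, Cd200 and Ccr7 kept theirs too. Over all settings, 4 of 504 folds of called genes turned, and 66 of 806 folds of named genes that were not called. Depth limits the rarer genes, as Il1rl1 ranged from 2.73 to 11.98 with both treatments and from 1.3 to 5.15 with depletion alone.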

Other observations

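Klrg1 was also seen in cells without a Foxp3 UMI: 22 thinned non-cycling cells with both treatments and 18 with Treg depletion alone. Their Gzmb level was 5318 and 8167 CPM, against 7131 and 10157 CPM in the Foxp3-positive members and 122 and 123 CPM in cells with neither gene. Ctla4 stood at 3136 and 1444 CPM in them, Tnfrsf18, the GITR receptor of Tregs, at 2045 and 1889 CPM, and Ifitm2 at 3227 and 2333 CPM. Before thinning their median depth was 1771 and 3426 UMIs, and the part of depth in the missing Foxp3 UMIs was not tested.

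Tox, a factor of chronically stimulated T cells, was lower in members than in Klrg1-zero cells with both treatments, at 0.39-fold (0.17 to 0.79), and had a fold of 2.05 (0.91 to 5.06) with depletion alone. Cholesterol synthesis genes had a median log2 fold of 0.36 over 9 tested genes. Only Fdps, farnesyl diphosphate synthase, was called higher, at 1.60 (1.07 to 2.37) and 1.55 (1.04 to 2.34). Of all tested genes 0.717% were called higher. By the mean over all thinnings Fdps had 1.45 and 1.28 and was not called.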
